A study of Mus musculus with 30 samples.

Results

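Prostaglandin E2 (PGE2) was added to interleukin-4 (IL-4) in mouse macrophages that carried a control short hairpin RNA (shRNA), and messenger RNA was sequenced to see which genes moved with the prostaglandin. The comparison took 6 of the 30 libraries of the series, all those labelled control shRNA and given IL-4, with 3 libraries with PGE2 and 3 without. Cells were bone marrow derived macrophages of C57BL/6 mice, grown with CSF-1, the macrophage growth factor, at 20 ng/mL to day 7. Per the labels, IL-4 was given at 20 ng/mL and PGE2 at 10 µM. Control shRNA, Etv1 shRNA and wild type were the genotypes of the series, and the cells of both groups compared here carried the same control hairpin label. Both shRNA genotypes came as 9 libraries, 3 each for unstimulated, IL-4 and IL-4 with PGE2. The 6 wild type libraries compared here were IL-4 and IL-4 with PGE2, again 3 each. Unstimulated wild type libraries and those given IL-4 with 10 nM valinomycin also entered the wild type fit, for its spread and scaling. The protocol in the labels names lentiviral particles for hairpins against Etv1, an ETS-family transcription factor. How the control hairpin was delivered, its sequence, the age and number of mice and the time of stimulation were not given in the sources used here. Whether each library had its own mouse or culture is not in the labels. The p-values therefore measure the spread between these samples only, and that spread may be technical.

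PGE2 is a lipid made from arachidonic acid that acts through the receptors EP1 to EP4, encoded by Ptger1 to Ptger4. EP2 and EP4 raise cyclic AMP, which activates protein kinase A, and the kinase phosphorylates CREB, a transcription factor that binds the cyclic AMP response element in target promoters. IL-4 acts through STAT6 and drives alternative activation of macrophages, of which arginase 1, encoded by Arg1, is a hallmark.

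Depth and library differences bear on several results. The IL-4 libraries held 14159884, 9383956 and 9209367 counts and the PGE2 libraries 8990406, 9149503 and 30473040. Library 2 of each group stood apart: the chi-square per degree of freedom between replicates was 12.1 to 17.4 for pairs that held it and 2.81 and 3.36 for the others. Interferon-response genes were high in library 2, and Mrc1 (CD206, a mannose receptor) was low. Counts were tested with edgeR's quasi-likelihood test in a fit of all 18 shRNA libraries, with Benjamini-Hochberg adjustment over all 12382 genes that passed the filter on low counts, and genes were called at an adjusted p under 0.05. Levels are in CPM, counts relative to the library total, scaled by TMM within an experiment, so they are not compared between experiments. Differences are log2 fold changes ± standard error (SE), with n = 3 per group. In bulk samples, fewer cells of a type and less RNA per cell cannot be told apart.

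PGE2 moved a large share of the measured genes. With PGE2, 3630 genes (29.3% of those tested) were higher and 3730 (30.1%) lower, 59.4% in all. Counts of listed genes below are to be read against these shares. Changes of at least 2-fold were found for 955 raised genes (7.71%) and 893 lowered genes (7.21%). Most changes were small: the median absolute log2 change of called genes was 0.56, and 3813 of them changed by less than 1.5-fold. The large changes were mostly increases, with 195 genes raised and 40 lowered at least 8-fold. In 93.9% of the called genes the 3 libraries of one group all lay above the 3 of the other. The call from the same libraries favours such genes, so this share is not separate evidence for the calls. Without both libraries numbered 2, 3457 genes were higher and 3311 lower.

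**Figure D1:**
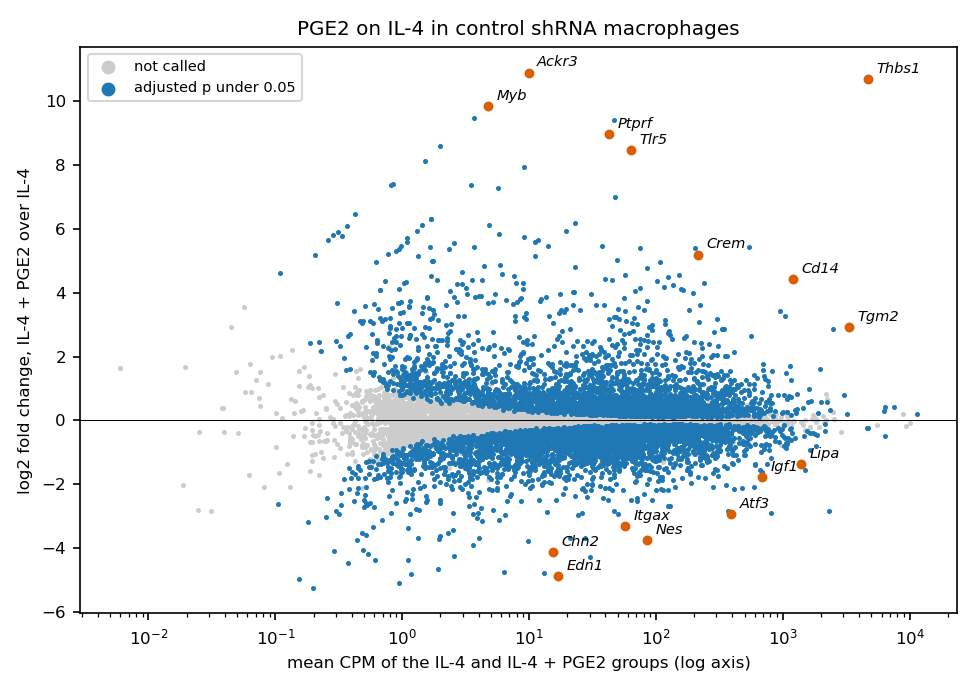
Log2 fold change of IL-4 with PGE2 over IL-4 (vertical axis) against mean CPM of the 2 groups (horizontal, log axis) for each gene tested in control shRNA macrophages. Blue points passed an adjusted p of 0.05, and orange points are named genes. Thbs1 stands at the upper right, with a change of 10.69. Values of genes with no count in a group, such as Ackr3 and Myb, depend on the prior count of the fit.

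The receptors for PGE2 were measured first. Ptger4, which encodes EP4, stood at 23.4, 19.7 and 19.5 CPM with IL-4 and at 11.0, 6.33 and 9.74 CPM with PGE2, without overlap. Its change was -1.20 ± 0.13 (edgeR adjusted p = 2.54e-07). In wild type macrophages the change of Ptger4 was -0.02 ± 0.11, and the difference between the experiments was -1.19 ± 0.21 (adjusted p = 0.00133). Ptger2, which encodes EP2, stood at 28.0, 29.6 and 34.8 CPM with IL-4 and 22.7, 17.6 and 27.5 CPM with PGE2, so the highest library with PGE2 lay just below the lowest without. Its change of -0.41 ± 0.12 (adjusted p = 0.00716) was -0.29 with adjusted p = 0.0507 without both libraries numbered 2, and -0.32 with adjusted p = 0.0509 without IL-4 library 3. Ptger1 and Ptger3 had too few counts to be tested, with 0.488 to 0.676 CPM and 0 to 0.235 CPM over the 6 libraries.

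Around the receptors, enzymes of prostaglandin metabolism moved in both directions. Of 20 listed genes of the pathway 16 were tested, and 4 rose and 10 fell, against 29.3% and 30.1% of all genes. The median was -0.36 against -0.01 over all genes. Without both libraries numbered 2, 6 fell. Ptgs2, which encodes the inducible cyclooxygenase COX-2, stood at 29.4, 20.2 and 28.6 CPM with IL-4 and at 72.3, 193 and 98.6 CPM with PGE2. All libraries with PGE2 were higher, library 2 most of all. The change was 2.20 ± 0.33 (adjusted p = 7.44e-05) and 1.58 without both libraries numbered 2. With only these 6 libraries and a replicate block, Ptgs2 had an adjusted p of 0.0669. Ptges, the inducible PGE synthase, rose from a low level (0.722 ± 0.118 to 3.05 ± 1.58 CPM, mean ± SD, change 2.13 ± 0.37). Other enzymes went the other way: Ptgs1 (COX-1) fell from 55.8, 37.5 and 44.1 to 9.76, 9.50 and 10.4 CPM, a change of -2.20 ± 0.15. Unstimulated cells had 2.24 to 4.16 CPM of Ptgs1. Pla2g4a, the cytosolic phospholipase that frees arachidonic acid, fell by 1.21 on the log2 scale, and Tbxas1, thromboxane synthase, by 1.97. IL-4 alone had raised Ptgs1, Pla2g4a and Tbxas1 by 3.72, 0.88 and 1.28 over unstimulated cells. Abcc4, a transporter that exports PGE2 and cyclic AMP, rose by 0.74 ± 0.12.

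Genes known as targets of cyclic AMP rose together. Of 27 listed targets 25 were tested: 21 rose, Atf3 and Pde4a fell, and Rgs2 and Pde7b did not pass the test. Over all genes 29.3% rose and 30.1% fell. The median of the 25 targets was 1.67, and the sum of the whole list was 2877 to 3044 CPM with IL-4 and 5654 to 6559 CPM with PGE2. Crem, whose short isoform ICER represses cyclic AMP response elements, stood at 12.4, 10.7 and 10.8 CPM with IL-4 and 402, 448 and 403 CPM with PGE2. The change was 5.19 ± 0.11 (adjusted p = 5.18e-18), far above the spread within either group. Phosphodiesterases, which degrade cyclic AMP, rose by a similar size. Pde4b went from 19.4, 14.6 and 17.9 to 294, 305 and 303 CPM, a change of 4.11 ± 0.09. Pde3b rose by 4.48 ± 0.19 and Pde4d by 4.03 ± 0.19, whereas Pde4a fell by 0.42. The orphan nuclear receptors Nr4a1, Nr4a2 and Nr4a3, immediate early genes, rose by 2.25 ± 0.24, 5.02 ± 0.27 and 4.31 ± 0.23. Of the AP-1 genes, Fosb rose by 4.44 ± 0.30, Fos by 2.04 ± 0.16, Fosl2 by 1.56 ± 0.08 and Junb by 0.97 ± 0.08. Sik1, a kinase that holds CREB coactivators in the cytoplasm, rose by 2.30 ± 0.10. Atf3, a stress-induced repressor of the same family as CREB, was the largest exception. It stood at 640, 751 and 686 CPM with IL-4 and 94.0, 82.7 and 92.7 CPM with PGE2, a change of -2.94 ± 0.10 (adjusted p = 1.04e-13), below the 341 to 393 CPM of unstimulated cells.

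The cyclic AMP response element was searched in the 250 bases upstream of each gene's start, in the RefSeq promoter table on GRCm38.p6. The full element is TGACGTCA, which reads the same on both strands. Of the 21 listed targets with a promoter entry 3 held it: Dusp1, Prkar1a and Areg, of which Areg had too few counts to be tested. Dusp1, a phosphatase that switches off MAP kinases, rose by 1.67 ± 0.14, and Prkar1a, the regulatory subunit of protein kinase A, by 0.57 ± 0.06. Their windows are printed 5′ to 3′ on the strand of the gene, with the element in capitals, to show where it lies. It starts 143 bases before the start of Dusp1 (chr17:26508473-26508722, minus strand) and 49 bases before that of Prkar1a (chr11:109650699-109650948, plus strand).
Dusp1: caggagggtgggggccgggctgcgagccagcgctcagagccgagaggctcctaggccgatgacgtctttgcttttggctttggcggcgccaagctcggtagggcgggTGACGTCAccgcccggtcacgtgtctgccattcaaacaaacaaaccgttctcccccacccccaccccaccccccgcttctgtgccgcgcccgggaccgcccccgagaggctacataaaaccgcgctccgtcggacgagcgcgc
Prkar1a: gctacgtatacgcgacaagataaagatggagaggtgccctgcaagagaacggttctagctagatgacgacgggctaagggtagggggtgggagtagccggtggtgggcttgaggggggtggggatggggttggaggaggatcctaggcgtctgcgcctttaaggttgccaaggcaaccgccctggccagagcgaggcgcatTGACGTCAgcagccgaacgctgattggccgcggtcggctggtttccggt
Among genes of both directions of change the shares were similar. A gene with a promoter entry was counted where any of its entries held the motif. The full element was present in 16 of 725 genes raised at least 2-fold (2.21%, 95% exact interval 1.27 to 3.56), 14 of 671 lowered at least 2-fold (2.09%, 1.15 to 3.48) and 295 of 9475 tested genes (3.11%). Over all 27025 genes of the promoter table the share was 1.77%. The shorter motif TGACG or CGTCA, both contained in the full element, was in 27.59%, 25.34% and 31.21% of the same raised, lowered and tested genes. It was in 80.95% of the listed targets (17 of 21). That list is small and was chosen as known targets of cyclic AMP, so its share is not an independent result. A match is a description of the letters and not of binding.

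Among genes with counts in both groups the largest increase was that of Thbs1, which encodes thrombospondin-1, an adhesive glycoprotein that activates latent TGF-β. Thbs1 stood at 3.73, 10.3 and 3.83 CPM with IL-4 and at 7249, 12897 and 8217 CPM with PGE2, a change of 10.69 ± 0.49 (adjusted p = 7.43e-10). It took 0.661%, 1.20% and 0.750% of all counts in the PGE2 libraries, and ranked 7th, 2nd and 6th among all genes. In wild type its change was 8.27 ± 0.19, and the difference of 2.41 ± 0.48 passed the test (adjusted p = 0.0106). Ackr3, an atypical receptor that takes up the chemokine CXCL12, had no count in the IL-4 libraries and 17.6, 22.5 and 19.6 CPM with PGE2, at least 207-fold higher against a floor of 3 counts over the group. Tlr5, the receptor for bacterial flagellin, went from 0.366, 0.339 and 0.338 to 128, 126 and 131 CPM (8.47 ± 0.17, adjusted p = 5.18e-18). The PGE2 libraries lay close together, while the IL-4 level rests on 11 counts over the group. Ptprf, a receptor tyrosine phosphatase, went from 0.0732, 0.226 and 0.225 CPM (5 counts over the group) to 70.0, 109 and 76.2 CPM. Ramp3, a partner of the receptor for adrenomedullin, had 0.146, 0.226 and 0 CPM with IL-4 (4 counts) and 81.2, 107 and 90.9 CPM with PGE2. Adm, the gene of adrenomedullin itself, rose by 4.27 ± 0.44 at a low level. Myb, a transcription factor of blood progenitors, had no count with IL-4 and 7.93, 10.2 and 10.5 CPM with PGE2, at least 104-fold higher.

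Tgfb3, a TGF-β ligand, went from 0.732, 1.02 and 0.451 to 105, 82.9 and 96.3 CPM (7.00 ± 0.43). Nrg1, the growth factor neuregulin 1, had 1 count in the IL-4 libraries together and 4.76, 9.50 and 6.68 CPM with PGE2, a ratio of 216-fold with a 95% counting interval of 38.4 to 8542. Tnfrsf9, the costimulatory receptor 4-1BB, had 2 counts with IL-4 and 9.27, 11.0 and 13.7 CPM with PGE2 (194-fold, interval 53.4 to 1604). Itga1, the collagen-binding integrin α1, went from 0.220, 1.02 and 0.789 to 35.0, 60.4 and 40.1 CPM. Dmkn (dermokine) rose by 6.11 ± 0.35 and B3gnt5, an enzyme of glycolipid synthesis, by 5.93 ± 0.48. Intervals and floors cover counting error only.

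The genes lowered most were of several kinds, and their declines were smaller than the largest increases. Edn1, the vasoconstrictor peptide endothelin-1, fell from 38.9, 20.2 and 39.6 to 1.22, 0.821 and 1.19 CPM, a change of -4.88 ± 0.40 (adjusted p = 5.1e-08). Batf3, a transcription factor of the AP-1 family, fell from 25.7, 20.0 and 30.4 to 1.22, 0.586 and 0.934 CPM (-4.77 ± 0.25). Both were under 1 CPM in unstimulated control shRNA cells. Itgax, the integrin CD11c, stood at 11.5, 19.6 and 10.4 CPM unstimulated, at 96.5, 113 and 104 CPM with IL-4 and at 8.05, 15.7 and 8.73 CPM with PGE2 (-3.32 ± 0.26). Chst7, a sulfotransferase of proteoglycan synthesis, changed by -4.29 ± 0.24 and Ablim1, an actin-binding protein, by -3.67 ± 0.22, from levels with IL-4 above those of unstimulated cells. Others were expressed without IL-4 and fell below that level. Chn2, which encodes the Rac inhibitor β2-chimaerin, had 11.4 to 19.4 CPM unstimulated and went from 32.1, 24.1 and 32.0 to 1.71, 1.52 and 1.73 CPM (-4.13 ± 0.21). Nes, the intermediate filament nestin, went from 202, 109 and 167 to 18.7, 5.63 and 11.5 CPM (-3.76 ± 0.55), with library 2 lowest in both groups. Zfp618, a zinc finger protein, fell by 4.75, Ptchd1, a membrane protein with a patched domain, by 3.79, Rab11fip4, an effector of endosome recycling, by 3.70 and Hdac9, a histone deacetylase, by 3.67. Dnmt3aos also fell by 3.90, but it lies antisense to another gene and its counts are uncertain, since it is unknown here whether reads were counted by strand.

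**Figure D2:**
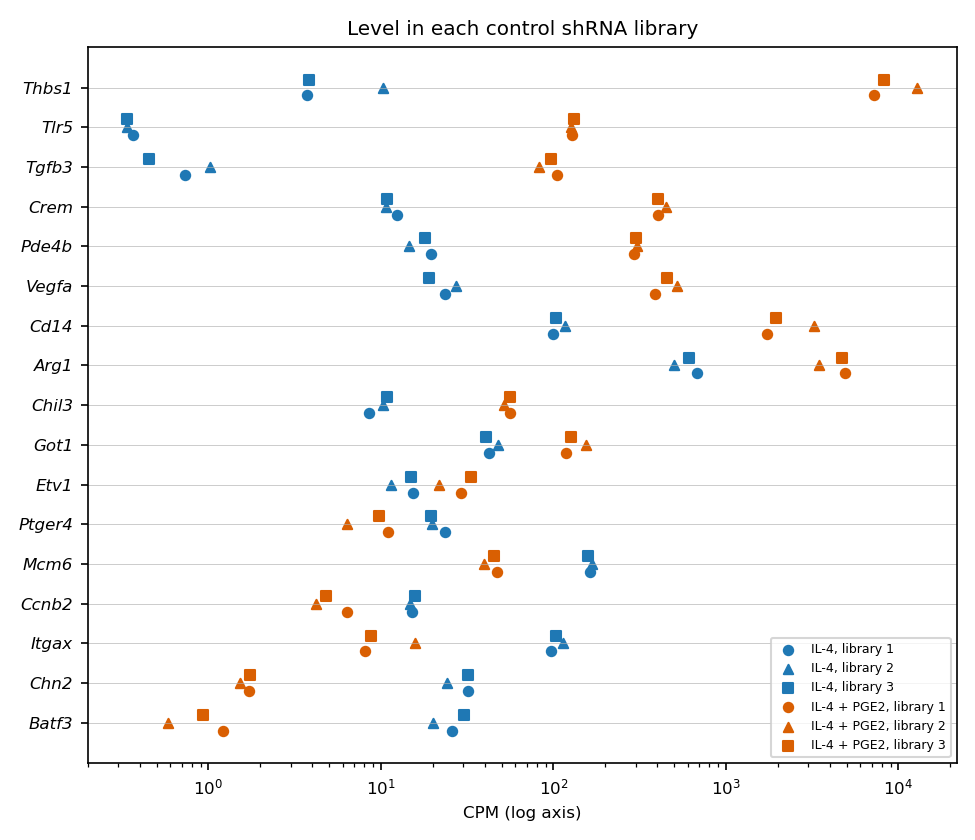
CPM (log axis) of 17 named genes in each of the 6 control shRNA libraries. Blue symbols are IL-4, orange are IL-4 with PGE2, and circles, triangles and squares are libraries 1, 2 and 3. For each gene shown, all 3 orange symbols lie on one side of the 3 blue ones.

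Of 28 tested genes of alternative activation 13 rose with PGE2 and 7 fell, with a median of 0.52, against 29.3% and 30.1% of all genes. Arg1 stood at 0.204 to 0.391 CPM unstimulated, 681, 502 and 607 CPM with IL-4 and 4882, 3467 and 4732 CPM with PGE2, a further change of 2.87 ± 0.21 (adjusted p = 4.5e-08). Tgm2, a transglutaminase that crosslinks proteins, went from 814, 726 and 781 to 6203, 5399 and 5967 CPM (2.92 ± 0.09). Chil3, a secreted chitinase-like protein, went from 8.57, 10.3 and 10.9 to 56.1, 51.8 and 55.9 CPM (2.48 ± 0.15). Mgl2 and Clec10a, galactose-binding lectins, rose by 2.42 ± 0.34 and 2.38 ± 0.31, and Il4ra, the IL-4 receptor chain, by 1.54 ± 0.11. Retnla, which encodes the secreted protein RELMα, went the other way, from 5.64, 3.61 and 6.31 to 1.22, 1.29 and 1.94 CPM. Its change of -1.66 ± 0.50 (adjusted p = 0.0139) had an adjusted p of 0.0509 without both libraries numbered 2 and of 0.0504 without IL-4 library 1. Irf4, a transcription factor that IL-4 induces, fell by 2.44 and Igf1 by 1.78, from 1070 ± 44.9 to 311 ± 53.0 CPM (mean ± SD). Mrc1 had 2087, 815 and 1842 CPM with IL-4 and 3659, 1551 and 3260 CPM with PGE2. It was higher in each numbered pair but overlapped between groups (0.84 ± 0.56, adjusted p = 0.219). In the fit with the replicate block, Mrc1 passed the test (0.85, adjusted p = 0.0177).

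Receptors of innate immunity were more often raised than lowered, where 29.3% of all genes rose and 30.1% fell. Of 27 tested, 15 rose and 6 fell, with a median of 0.58, and the sum of the list went from 6444 to 6699 CPM to 12554 to 12677 CPM. Besides Tlr5, the DNA sensor gene Tlr9 rose from 4.03, 3.16 and 2.37 to 34.5, 29.6 and 39.1 CPM (3.40 ± 0.18). Cd14, a coreceptor for lipopolysaccharide, went from 100, 117 and 104 to 1734, 3252 and 1952 CPM (4.43 ± 0.28), and Tlr4, the receptor it serves, rose by 1.31 ± 0.09. Trem1, a receptor that amplifies inflammatory signals, rose by 4.38 ± 0.12 and Clec4e (Mincle), a receptor for mycobacterial glycolipids, by 3.46 ± 0.16. The endosomal receptor genes Tlr7 and Tlr13 fell by 1.26 and 1.57, and Clec5a by 1.66. The costimulatory genes also parted. Cd86 went from 16.4, 10.3 and 13.6 to 286, 200 and 289 CPM (4.24 ± 0.16) and Cd80 rose by 2.79 ± 0.09, whereas Cd40 fell from 91.4, 71.2 and 83.7 to 15.7, 6.10 and 12.3 CPM (-2.83 ± 0.22). Of the 16 genes of antigen presentation tested, 3 rose and 5 fell, against 29.3% and 30.1% of all genes. Ciita, the master regulator of class II genes, fell by 2.51 and H2-DMa by 1.48, while H2-Aa, H2-Ab1 and H2-Eb1, the class II chains, changed by -0.16 ± 0.37, -0.15 ± 0.26 and -0.11 ± 0.27, within their error.

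Among cytokines and chemokines, several members rose from low levels. Over all genes 29.3% rose and 30.1% fell. Of 22 inflammatory mediators listed 13 were tested, and 8 rose and 2 fell (1 with the replicate block). Osm (oncostatin M) went from 12.2, 9.71 and 14.3 to 98.5, 103 and 115 CPM (3.12 ± 0.12), and Lif, a cytokine of the same family, from 0.293, 0.339 and 0.338 to 4.51, 5.39 and 4.56 CPM (3.86 ± 0.30). Il1b was 0.113 to 1.13 CPM with IL-4 and 3.70 to 8.21 CPM with PGE2. Its natural antagonist gene Il1rn rose by 1.21 ± 0.14, and Tnf changed by -0.27 ± 0.12 (adjusted p = 0.0736). Of the 18 chemokine genes tested, 7 rose and 2 fell, and 4 fell with the replicate block. The neutrophil attractants Cxcl2 and Cxcl3 led, with Cxcl2 at 7.83, 8.70 and 6.76 against 99.8, 155 and 132 CPM (4.05 ± 0.24). Cxcl3 rose by 5.46 ± 0.34. Ccl24, an eosinophil attractant, rose by 3.91 ± 0.38, and Ccl3 fell by 2.13.

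Growth and matrix factors were mixed, with 10 of 26 tested members raised and 9 lowered, near the shares of all genes. Their median was 0.30, and -0.02 without both libraries numbered 2. Vegfa, the main angiogenic factor, went from 23.4, 27.1 and 19.0 to 388, 518 and 455 CPM (4.29 ± 0.20, adjusted p = 3.04e-10). Unstimulated cells had 70.3 to 88.0 CPM. Timp1, an inhibitor of matrix proteases, rose from 0.439, 0.791 and 0.676 to 23.1, 12.2 and 29.4 CPM (5.16 ± 0.35). Plaur, the urokinase receptor, rose by 2.26 ± 0.10, while Plau, urokinase itself, fell by 2.12. Hgf (hepatocyte growth factor) went from 6.00, 5.31 and 6.42 to 17.3, 17.8 and 18.2 CPM. The platelet-derived growth factor genes Pdgfb and Pdgfa fell by 2.32 and 1.16, and Mmp13, a collagenase, by 1.68.

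Genes of glucose use and targets of hypoxia-inducible factor (HIF) were more often higher than lower with PGE2. Over all genes 29.3% were higher and 30.1% lower. Of 22 glycolysis genes tested 13 rose and 4 fell, with a median of 0.28. Slc16a3, which exports lactate, stood out at 79.2, 87.6 and 84.9 CPM with IL-4 and 607, 569 and 653 CPM with PGE2 (2.86 ± 0.08, adjusted p = 9.28e-16). Ldha, lactate dehydrogenase A, rose by 0.66 ± 0.06 and Pgk1 by 0.53 ± 0.07. The phosphofructokinase genes parted, with Pfkl up by 0.73 ± 0.07, Pfkp changed by -0.90 ± 0.05 and Pfkm by -0.89 ± 0.14. Hexokinase 2 (Hk2) fell by 0.54. Of 20 HIF targets 15 rose and 3 fell, with a median of 0.86. Mxi1, an antagonist of MYC, went from 18.7, 27.1 and 24.7 to 325, 443 and 347 CPM (4.00 ± 0.13), and Egln3, an oxygen-sensing prolyl hydroxylase, rose by 3.28 ± 0.19. Bnip3, which marks mitochondria for removal, rose by 1.79 ± 0.10 and Hif1a itself by 1.24 ± 0.12. The list shares Vegfa, Slc2a1, Pfkfb3 and Pfkfb4 with other lists.

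Genes of mitochondrial metabolism had small changes, with named exceptions. Got1, which encodes the cytosolic aminotransferase of the shuttle that carries reducing equivalents into mitochondria, went from 42.2, 47.6 and 40.5 to 119, 154 and 127 CPM, a change of 1.62 ± 0.09 (adjusted p = 6.96e-12). Got1 was the only one of 7 genes of the malate-aspartate shuttle that rose, and 4 fell. Slc25a13, the aspartate-glutamate carrier, fell from 114, 95.4 and 116 to 34.9, 21.2 and 29.6 CPM (-1.92 ± 0.11), below the 39.0 to 40.0 CPM of unstimulated cells. Got2, the mitochondrial aminotransferase, fell by 0.34, and Mdh2 changed by less than its error. Of 23 genes of the tricarboxylic acid cycle none rose and 13 fell, against 29.3% and 30.1% of all genes. Without both libraries numbered 2, 1 rose. The isocitrate dehydrogenase genes Idh2, Idh3a and Idh3b fell by 1.05, 0.96 and 0.61 on the log2 scale and Fh1 (fumarase) by 0.67. Among 75 nuclear subunits of the respiratory chain 8 rose, below the 29.3% of all genes. Of the same 75, 22 fell (24 with the replicate block), near the 30.1% of all genes, and the median was -0.04. The largest increase there was that of Uqcrh (0.40 ± 0.06) and the largest decline that of Ndufb4 (-0.52 ± 0.15). Of 11 tested protein genes of the mitochondrial genome 4 rose, against 29.3% of all genes, and one of them, mt-Atp6 (adjusted p = 0.0459), was not called with DESeq2 (adjusted p = 0.0931) or without both libraries numbered 2 (adjusted p = 0.111). mt-Co1 had 5743, 5941 and 5453 CPM with IL-4 and 6516, 7048 and 7280 CPM with PGE2 (0.28 ± 0.06), and the summed list went from 10360 to 11231 CPM to 11834 to 13189 CPM. Counts of mitochondrial genes are uncertain where nuclear copies share their reads.

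In amino acid metabolism, 6 of 22 tested genes of the amino acid and serine stress response rose and 11 fell, against 29.3% and 30.1% of all genes. Serine synthesis and one-carbon genes were lowered: Phgdh went from 20.1, 20.7 and 22.0 to 4.76, 6.45 and 5.39 CPM (-1.92 ± 0.15), Shmt2 changed by -1.26 ± 0.08 and Mthfd2 by -1.25 ± 0.11. Slc7a5, the leucine transporter, fell by 2.30 and Asns, asparagine synthetase, by 1.16. Atf4, the transcription factor of this response, changed by 0.11 ± 0.05 (adjusted p = 0.052). Slc7a11, the cystine transporter, rose by 3.25 ± 0.57, and its spread was large (9.41 ± 5.84 to 87.5 ± 51.0 CPM, mean ± SD).

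Lipid and lysosomal genes were split, and their counts stand against 29.3% raised and 30.1% lowered among all genes. Of 25 genes of sterol and fatty acid synthesis and transport, 12 rose and 6 fell. Sqle, an early enzyme of sterol synthesis, went from 19.5, 24.3 and 20.4 to 50.7, 59.2 and 57.4 CPM (1.39 ± 0.11), and Abca1, a cholesterol exporter, rose by 2.01 ± 0.20. Dhcr7, which makes cholesterol in a late step, fell by 1.42, and Abcg1, a second exporter, by 1.09. Of 19 fatty acid oxidation genes 4 rose and 10 fell, among them Echs1 (-0.97 ± 0.08) and Hadh (-0.75 ± 0.08). Of 26 lysosomal genes 3 rose (5 with the replicate block, 6 without both libraries numbered 2) and 11 fell. Lipa, lysosomal acid lipase, fell from 1828, 2278 and 1928 to 794, 787 and 750 CPM (-1.37 ± 0.07). Mitf and Tfeb, transcription factors of lysosome genes, fell by 1.47 and 1.14. Among 12 tested genes of potassium channels and the sodium pump 5 rose and 5 fell, against the same shares of all genes. Kcnn4, the calcium-activated potassium channel, fell from 615, 595 and 653 to 268, 252 and 273 CPM (-1.23 ± 0.06), and Kcnj2, an inward rectifier, by 2.50. Kcna3, a voltage-gated channel, rose by 1.76 ± 0.21.

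**Figure D3:**
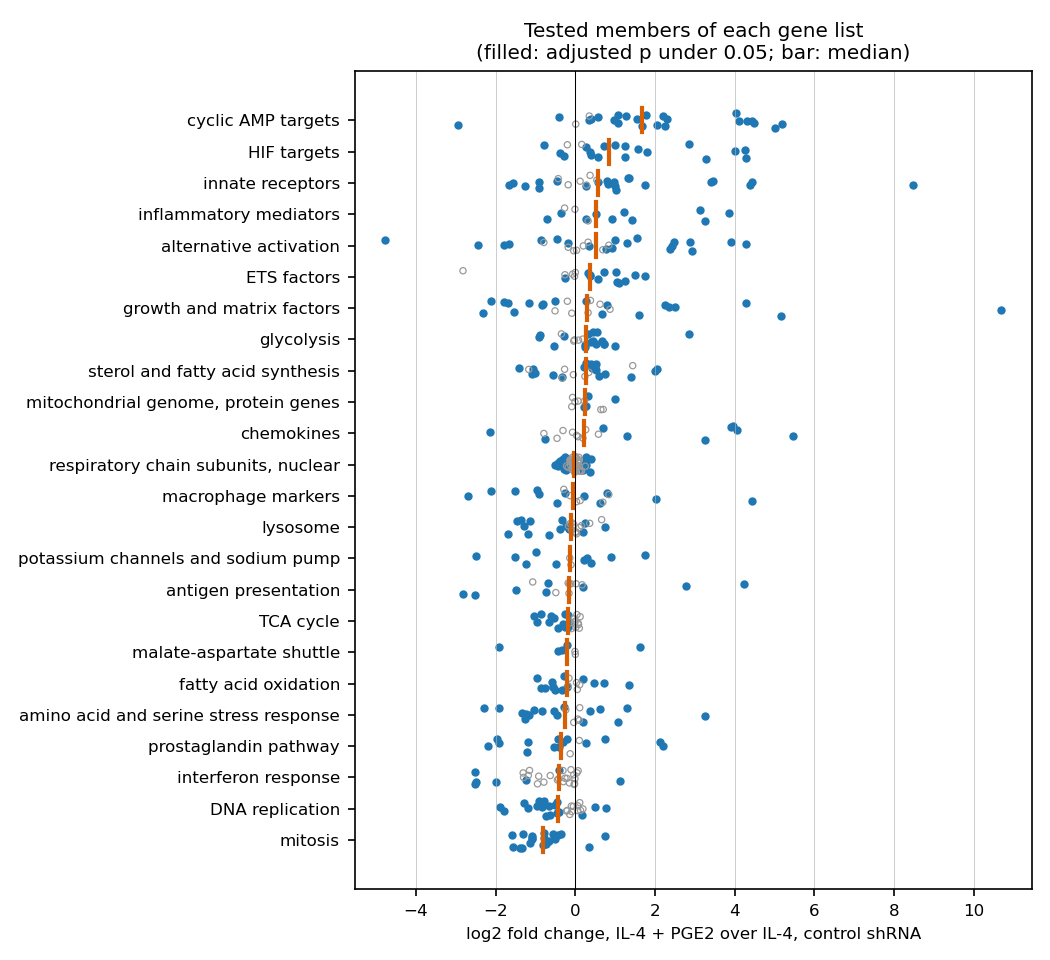
Log2 fold change of IL-4 with PGE2 over IL-4 in control shRNA cells for each tested member of the lists with 5 or more tested members. Filled points passed an adjusted p of 0.05, open points did not, and the orange bar is the median. Lists are ordered by median, from 1.67 for cyclic AMP targets to -0.81 for mitosis genes.

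Cell cycle genes were more often lowered than raised, against 30.1% and 29.3% of all genes. Of 20 mitosis genes 18 fell and 2 rose, with a median of -0.81. Ccnb2 (cyclin B2) went from 15.2, 14.7 and 15.7 to 6.34, 4.22 and 4.78 CPM (-1.59 ± 0.13, adjusted p = 2.1e-09). Ccnb1 (cyclin B1) went from 19.0, 17.4 and 19.6 to 8.90, 7.74 and 6.47 CPM (-1.33 ± 0.11), and Cenpf, a kinetochore protein, fell by 1.56. The exceptions were Cdk1, the partner of cyclin B, which rose by 0.35 ± 0.08, and Aurka, a spindle pole kinase, which rose by 0.74 ± 0.16. Of 30 DNA replication genes 16 fell and 3 rose, with a median of -0.44. Within the MCM helicase, Mcm6 fell from 162, 167 and 159 to 47.0, 39.5 and 45.2 CPM (-1.89 ± 0.06). Mcm5 had 36.2, 40.1 and 37.6 CPM with IL-4 and 36.5, 34.9 and 37.8 CPM with PGE2 (-0.05 ± 0.09, adjusted p = 0.618). Mcm7 likewise overlapped between the groups, at 18.1 to 22.5 and 19.4 to 21.8 CPM. Rfc3, a clamp loader subunit, and Lig1, DNA ligase, rose by 0.76 ± 0.11 and 0.50 ± 0.10.

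The cell cycle lists parted from wild type in opposite directions. The test of the difference in the PGE2 effect, control shRNA minus wild type, called 905 genes higher (7.07% of 12796) and 1026 lower (8.02%), 15.1% in all. These counts depended on libraries and settings: 595 genes were called lower without IL-4 library 1, 661 without IL-4 library 3 and 562 without PGE2 library 3. The share of calls that were higher, 46.9%, was 58.7% to 62.2% without any 1 of the control shRNA libraries. Without any 1 of the wild type libraries it was 46.2% to 48.8%. With all libraries it was 58.9% with no filter, 54.5% with DESeq2, 53.7% with RLE scaling and 45.1% with the replicate block. Of the 30 replication genes 21 were called higher and 1, Rrm2, lower, so their changes with PGE2 were mostly less negative in control shRNA cells, or above 0 as for Rfc3 and Lig1. In wild type 28 of the 30 fell, with a median of -1.08. Mcm5 changed by -1.37 ± 0.08 there, a difference of 1.31 ± 0.09 (adjusted p = 3.99e-07), and Mcm2 by -2.34 ± 0.11 against -0.74 ± 0.12. Of the 20 mitosis genes 14 were called lower and 1, Cdk1, higher, so the changes of these 14 were more negative in control shRNA cells. The wild type median was -0.37, and Ccnb1 changed by -0.33 ± 0.09 there, a difference of -1.01 ± 0.17 (adjusted p = 0.000813). Between Etv1 and control shRNA, 14 of the 20 mitosis genes were called higher in the difference, against 6.03% of all genes in that direction.

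**Figure D4:**
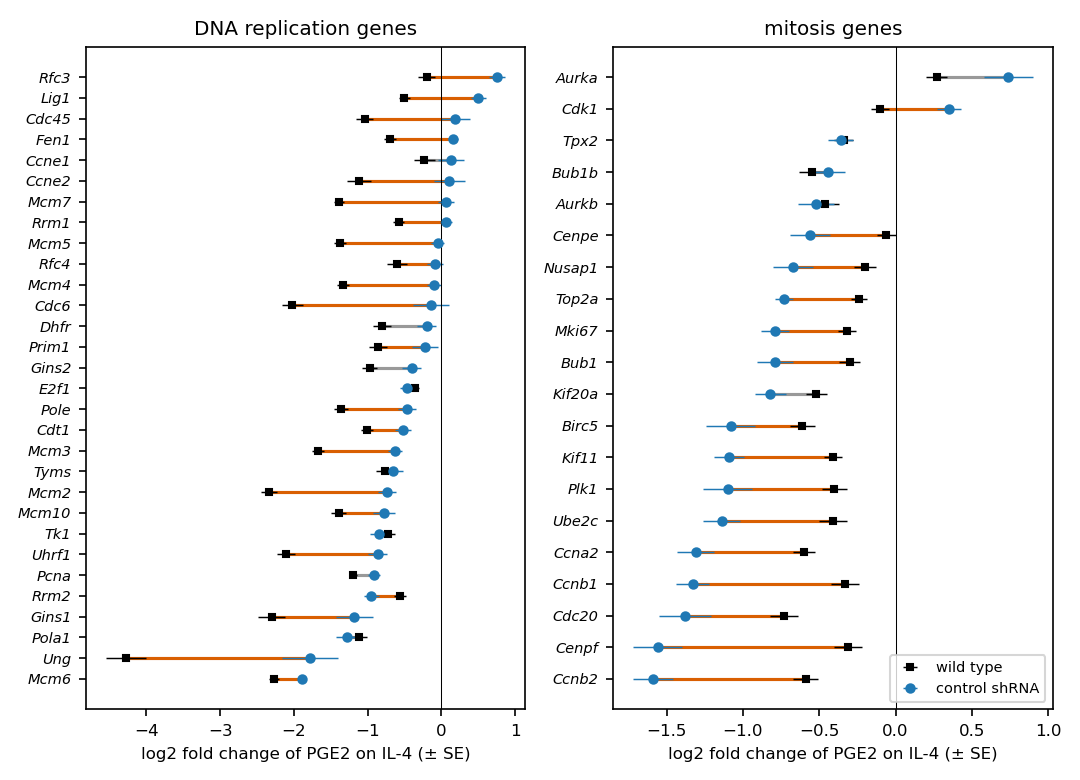
Log2 fold change of PGE2 on IL-4 ± SE (horizontal) for each DNA replication gene (left) and mitosis gene (right), in control shRNA cells (blue circles) and wild type cells (black squares). Lines are orange where the difference passed an adjusted p of 0.05 and grey where it did not. On the left most circles lie to the right of their squares, and on the right most lie to the left.

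Interferon-response genes moved with library 2 of each group. Of 29 tested 1 rose and 6 fell, against 29.3% and 30.1% of all genes. Without both libraries numbered 2, 1 rose and 2 fell. The sum of the list was 2991, 5581 and 2557 CPM with IL-4 and 2948, 3564 and 2787 CPM with PGE2, highest in library 2 in both groups. Ifit2, an antiviral protein, had 85.3, 315 and 69.4 CPM with IL-4 and 23.2, 45.5 and 18.2 CPM with PGE2 (-2.49 ± 0.74, adjusted p = 0.0109). Ifit2 was no longer called without IL-4 library 2 (-1.50, adjusted p = 0.0770), without PGE2 library 3 (adjusted p = 0.0532), with the 6 libraries alone (adjusted p = 0.0502) or after thinning (adjusted p = 0.0693). Mx1, an antiviral GTPase, went from 141, 166 and 99.2 to 35.7, 38.6 and 29.1 CPM (-2.00 ± 0.38). Irf7, a regulator of interferon genes, rose from 346, 453 and 311 to 893, 721 and 823 CPM (1.13 ± 0.31).

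Transcription factors of the ETS family, to which Etv1 belongs, were mostly raised, against 29.3% of all genes. Of 17 tested 11 rose and 1, Spi1 (PU.1), fell, and 2 fell with the replicate block. Ets1 went from 19.7, 19.3 and 18.3 to 47.4, 87.5 and 58.2 CPM (1.75 ± 0.16), Ets2 rose by 1.25 ± 0.23, Fli1 by 1.10 ± 0.07 and Elk3 by 1.05 ± 0.06. Etv1 itself had 15.3, 11.5 and 14.9 CPM with IL-4 and 29.1, 21.8 and 33.1 CPM with PGE2. Among lineage factors of macrophages, Maf went from 97.2, 83.5 and 88.6 to 401, 291 and 412 CPM (2.03 ± 0.11), and Cebpa fell from 197, 243 and 235 to 36.1, 28.4 and 38.6 CPM (-2.69 ± 0.10). Cebpb, a factor of the same family, rose by 1.06 ± 0.09.

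Markers of other cell types were checked beside these groups. Of 19 macrophage markers 18 were tested, and 5 rose and 7 fell, against 29.3% and 30.1% of all genes. The sum of the 19 was 24615 to 26218 CPM with IL-4 and 29746 to 30436 CPM with PGE2. Neutrophil markers summed to 8.93, 23.5 and 11.5 CPM with IL-4 and 11.2, 25.9 and 16.2 CPM with PGE2, and the defining genes Ly6g, Elane, Retnlg, Camp and Ltf had no count in the 6 libraries. Of the 3 neutrophil markers tested 1 rose: Mpo, the granule enzyme myeloperoxidase, went from 0.366, 0.226 and 0.113 to 1.46, 1.29 and 1.73 CPM (2.57 ± 0.46, adjusted p = 7.95e-05). Lymphocyte markers summed to at most 0.821 CPM, with 7 of 8 at no count, and stromal markers to at most 8.21 CPM, in PGE2 library 2. Dendritic cell markers summed to 1.95 to 3.66 CPM. The only one tested, Zbtb46, fell by 0.92 (edgeR adjusted p = 0.00775), and was not called with DESeq2 (adjusted p = 0.0577). Markers of mast cells, basophils and eosinophils summed to 0.452 to 1.35 CPM with IL-4 and at most 0.144 CPM with PGE2. Siglecf, the only one tested, fell by 2.93 on 18 against 3 counts (edgeR adjusted p = 0.00939). It was not called without IL-4 library 3 (adjusted p = 0.0578). Of the erythroid and megakaryocyte list, Hbb-bs, Hbb-bt and Alas2 had no count, while Pf4, which macrophages also express, went from 119, 56.2 and 120 to 271, 165 and 295 CPM, Ppbp rose by 3.96 ± 0.36 and Itga2b by 0.95 ± 0.34 (adjusted p = 0.0195). Itga2b was not called with DESeq2 (adjusted p = 0.0678) or without IL-4 library 1 (adjusted p = 0.104), IL-4 library 3 (adjusted p = 0.0751) or PGE2 library 2 (adjusted p = 0.0670).

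Wild type macrophages gave a separate set of libraries for the same question. Of 11906 genes tested in both experiments, 7191 were called in control shRNA and 7348 in wild type. In the wild type fit of its own, 59.4% of tested genes were called, 29.9% higher and 29.5% lower. In both experiments 5210 were called in the same direction, 72.5% of the calls in control shRNA and 70.9% of those in wild type. Another 199 were called in opposite directions. Pearson's r of the changes across genes was 0.83 and Spearman's rho 0.76, a description in which genes are not independent replicates. Where both were called in the same direction, the change was larger in control shRNA cells for 3358 genes (64.5%), with a median absolute value of 0.62 against 0.52. Among genes called for the difference and tested in both, 971 had the same sign and a larger change in control shRNA cells, 292 the same sign and a smaller one, and 647 opposite signs. Transduction, the hairpin and the experiment cannot be told apart as the source. With the replicate block, 1326 genes were called higher and 1617 lower, and without both libraries numbered 2, 1566 and 1002.

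**Figure D5:**
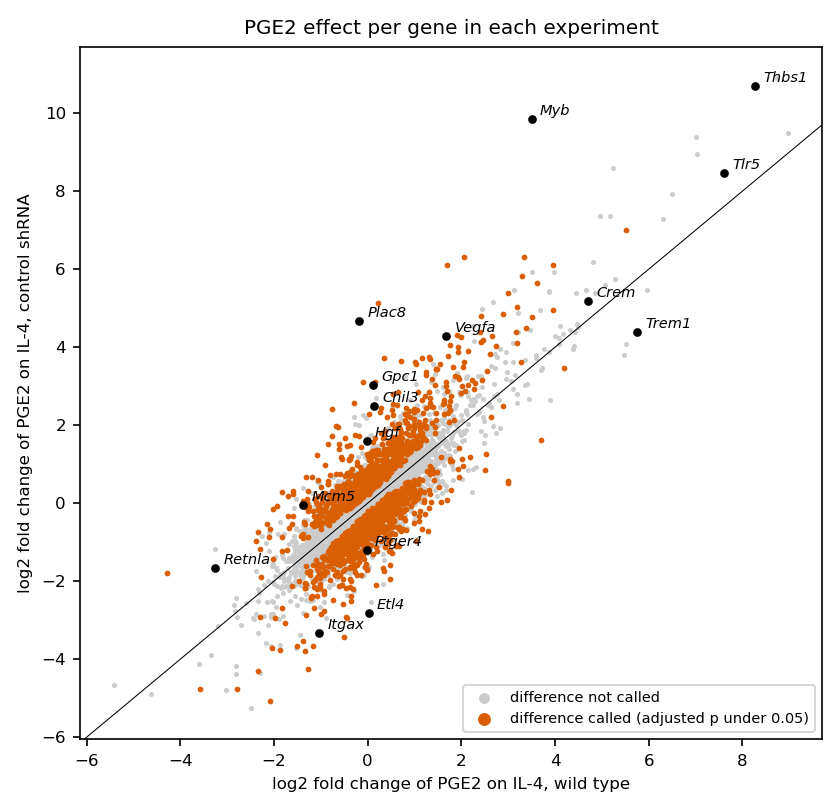
Log2 fold change of PGE2 on IL-4 in control shRNA cells (vertical) against wild type cells (horizontal) for each gene tested in both. Orange points passed an adjusted p of 0.05 for the difference, black points are named genes, and the line marks equal changes. Most points follow the line, with Myb, Vegfa and Chil3 above it and Itgax below.

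Several genes of the report differed between the experiments. Chil3 changed by 2.48 ± 0.15 in control shRNA and 0.13 ± 0.05 in wild type cells, where it stood at 247 ± 6.76 and 269 ± 13.1 CPM (mean ± SD), and the difference was 2.35 ± 0.10 (adjusted p = 2.18e-09). For Arg1 the difference was 0.79 ± 0.18 (adjusted p = 0.00857), and for Retnla, which changed by -3.26 ± 0.20 in wild type, 1.60 ± 0.39 (adjusted p = 0.0153). Vegfa rose by 1.68 ± 0.19 in wild type, a difference of 2.60 ± 0.26 (adjusted p = 0.000188), and Slc16a3 and Mxi1 differed in the same direction. Egln3 also did (2.04, adjusted p = 0.016), but not past the threshold without both libraries numbered 2 (2.30, adjusted p = 0.0752). Of the 25 cyclic AMP targets 14 were called higher in the difference and 3 lower, against 7.07% and 8.02% of all genes. Hgf changed by -0.02 ± 0.12 in wild type, a difference of 1.60 ± 0.19. Gpr65, a proton-sensing receptor coupled to cyclic AMP, Pim1, a survival kinase, and Tm4sf19, a tetraspan membrane protein, were chosen after their values were seen. In control shRNA cells they rose by 1.73 ± 0.10, 1.76 ± 0.19 and 1.96 ± 0.15, and in wild type they fell by 0.18, 0.28 and 0.64. Cd14, Cd80 and Cd86 differed by 0.11, 0.01 and 0.15 and did not pass the test of the difference. Of 75 respiratory chain subunits 46 fell in wild type, and 7 were called higher in the difference and none lower, against 7.07% of all genes higher.

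The effect was also set against that with the Etv1 hairpin, where Etv1 itself stood at 5.33 ± 0.580 CPM with IL-4 and 8.89 ± 1.08 CPM with PGE2 (mean ± SD). The difference of the PGE2 effect, Etv1 minus control shRNA, was called higher for 747 genes (6.03%) and lower for 691 (5.58%), 11.6% in all. Tlr5 rose by 5.12 ± 0.13 with the Etv1 hairpin, a difference of -3.36 ± 0.33 (adjusted p = 2.78e-06). It stood at 2.59 ± 0.261 CPM there with IL-4 alone, against 0.348 ± 0.0159 CPM in control shRNA cells. With PGE2 the levels were 90.3 ± 0.295 and 128 ± 2.88 CPM. Of the 25 cyclic AMP targets 14 were called lower in this difference and 2 higher. Those called lower included Crem (5.19 in control shRNA, 4.32 with the Etv1 hairpin) and Klf4, which rose by 0.35 in control shRNA cells and fell by 0.48 with the Etv1 hairpin. Those called higher were Rgs1, which rose by 1.07 and 1.77, and Atf3, which fell by 2.94 and 1.83. Arg1, at 2.85 ± 0.21 with the Etv1 hairpin, differed by -0.02 ± 0.28 (adjusted p = 0.983).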

How the data were processed

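Raw counts per gene were deposited by the authors, 1 whole number per gene and library. Per the submitters' processing notes, STAR, featureCounts, DESeq2 and deepTools were used with genome GRCm38; the roles and versions of the tools and the strand setting were not given in the sources used here. Per the labels' protocols, libraries came from the TruSeq stranded mRNA kit. Of 43629 gene IDs, 42548 (97.52%) matched a symbol, and the unmatched IDs held 0.153% of reads.

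Counts were tested with edgeR 4.0.16 (R 4.3.3, limma 3.58.1): TMM scaling, filterByExpr and the robust quasi-likelihood test, over the 18 shRNA libraries in 6 groups with no block (12 residual degrees of freedom). The SE is the absolute log2 fold change divided by the square root of F. Changes within wild type came from a fit of all wild type libraries, including the unstimulated and valinomycin ones. The difference from wild type was fitted on the 12 IL-4 and IL-4 with PGE2 libraries of control shRNA and wild type. Scripts were tested on simulated data.

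Same-numbered control shRNA libraries deviated together from their group means, with correlations of 0.322, 0.494 and 0.197 over 11568 genes. Unlike-numbered pairs of libraries 1 and 3 gave 0.193 and 0.173, so the value for library 3 was little above these. Unlike-numbered pairs with a library 2 gave -0.389 to -0.267. The numbers pair samples only in the replicate block, an alternative, and the reported fit is unpaired. Where the numbers come from is not stated in the labels.

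Named genes were the receptors and a few fixed genes, the 12 raised and 12 lowered with the largest changes (mean of at least 5 CPM, groups not overlapping), up to 5 per list by adjusted p, and the largest differences from the other genotypes. Other list members, and Gpr65, Pim1 and Tm4sf19, were chosen after their values were seen. A few genes are not reported here. The members and lists were chosen with earlier results of these data known. Alternatives were DESeq2 1.42.0, other scalings, no filter, the block, fewer libraries, thinning to 8990406 counts and each library left out; leaving out both libraries numbered 2 was added after seeing the data.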

Additional observations from a re-analysis of the deposited data

Results flagged for a closer look

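The effect of PGE2 differed between control shRNA and wild type cells by an edgeR quasi-likelihood test for 905 genes higher and 1026 lower in control shRNA cells, as log2 differences of fold changes. Leaving out IL-4 library 1, IL-4 library 3 or PGE2 library 3 of control shRNA gave 595, 661 and 562 lower. Leaving out any other single control shRNA library gave 755 to 809 lower. The fitted difference of Myb was 6.33, a value that depends on the prior count, since Myb had no count with IL-4 in control shRNA cells: it was at least 104-fold higher with PGE2 there, and changed by 3.50 on the log2 scale in wild type. The other named genes with large positive differences were Plac8 (4.86), Gprc5b (2.95), Clcf1 (2.93), Gpc1 (2.91) and Mpo (2.87). Those with the largest negative differences were Map2 (-3.00), Olfr111 (-2.97), Etl4 (-2.85), Hdac9 (-2.50), Ptchd1 (-2.46) and Cxcr3 (-2.43). Plac8 stood at 0.220, 0.226 and 0.225 CPM with IL-4 and 8.29, 1.41 and 7.37 CPM with PGE2 in control shRNA cells, with library 2 lowest.

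The effect differed between Etv1 shRNA and control shRNA cells for 747 genes higher and 691 lower by the same test. The named positive differences were Fam174b (3.26), Map2 (2.90), Ptchd1 (2.00) and Etl4 (1.95), and the negative ones Tnfrsf9 (-4.64), Nrg1 (-4.38), Tlr5 (-3.36) and Ccl24 (-3.06). Nrg1 had 1 count and Tnfrsf9 2 counts in the control shRNA IL-4 libraries together, and Tlr5 and Ccl24 had 11 and 15. With PGE2, Tlr5 stood at 128 CPM in control shRNA cells and 90.3 CPM with the Etv1 hairpin. With IL-4 alone its levels were 0.348 and 2.59 CPM. Map2 and Fam174b had 2 counts each in the control shRNA PGE2 libraries. Map2 was not called without both libraries numbered 2 (adjusted p = 0.134) or without several single libraries. Nrg1 also lost its call in several settings, such as without Etv1 shRNA IL-4 library 2 (adjusted p = 0.158). Etl4 lost it without Etv1 shRNA PGE2 library 1 (adjusted p = 0.106) and Fam174b without control shRNA PGE2 library 3 (adjusted p = 0.0919). Map2, Ptchd1 and Etl4 appear in both sets, which share the control shRNA libraries.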

How the results depend on the processing

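For PGE2 on IL-4 in control shRNA cells, the numbers of genes called stayed within 1.5 times of the reported ones in all alternatives run: with the replicate block 3818 were higher and 3920 lower, and with libraries left out singly 3224 to 3605 and 3319 to 3560. The replicate block changed the call of 1 named gene, Mrc1. Scaling by library totals shifted the median of all genes to -0.07, with 3101 higher and 4204 lower.

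The difference from wild type moved more. Without both libraries numbered 2, 1566 genes were higher and 1002 lower; with the replicate block, 1326 and 1617; and with single libraries left out, 632 to 1301 and 562 to 923. The lowest counts of lower genes came without IL-4 library 1 (595), IL-4 library 3 (661) and PGE2 library 3 (562). The share of calls that were higher, reported as 46.9%, was 58.7% to 62.2% without any 1 of the control shRNA libraries. It was 58.9% with all libraries and no filter. The cause was not tested.

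Uncalled values changed sign. For the PGE2 effect, Mmp8 (0.02) was -0.01 with 6 libraries and the replicate block, -0.03 with library totals, and -0.28, -0.11 and -0.53 without single libraries (range -0.53 to 0.57); Mcm5 (-0.05) was 0.02 without both libraries numbered 2; and Mcm7 (0.06) was -0.12 after thinning. For the difference from wild type, Cd14 (0.11) was -0.09 without both libraries numbered 2 and -0.17, -0.02 and -0.00 without single libraries (range -0.17 to 0.33), and Mrc1 (-0.09) was 0.22, 0.09 and 0.26 (range -0.34 to 0.26). Depth limits genes under 3 counts, which is 0.0984 to 0.3337 CPM.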
